A study of Mus musculus with 20 samples.

Results

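The 10 genes described here encode inducible transcription factors of the AP-1 family (Fos, Fosb, Jun, Junb and Jund), the EGR family (Egr1 and Egr2) and the NR4A family (Nr4a1, Nr4a2 and Nr4a3). They were chosen by symbol, and each was represented by its longest listed transcript, so that they are 10 of the 23992 gene symbols in the tables. All 10 had enough reads to be tested in both experiments. RNA was sequenced from CD8+ T cells isolated by negative selection from spleens of wild-type C57BL/6J mice aged 6 to 8 weeks. All cells, the unstimulated ones included, had first been activated for 48 hours with plate-bound anti-CD3 and soluble anti-CD28 and then rested overnight. A further culture of 24 hours followed, without cytokine, with native murine IL-21 (mIL-21) or with 21h10, a computationally designed mimic of IL-21. For the cells without cytokine, the paper's figure legend names PBS. In experiment 1 either cytokine was given at 100 pM and at 1 nM, and in experiment 2 either was given at 10 nM and at 100 nM, with separate unstimulated cells in both. Both experiments thus had 5 groups, each with 2 libraries (n = 2), 20 libraries in all.

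AP-1 is a dimer of a Jun protein with a Fos, Jun or related bZIP protein, and in T cells it binds DNA together with NFAT or with BATF and IRF4. EGR proteins are zinc finger factors that are induced within minutes through MAP kinase and SRF after the T cell receptor is engaged, and their NAB partners limit them. NR4A proteins are orphan nuclear receptors that are also induced by antigen receptor signals and are known for their part in T cell tolerance and exhaustion. All 3 families are classed as immediate-early genes, so a 24-hour culture measures their sustained level and not their first peak.

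The sequence just upstream of a start site shows where the signal-responsive elements of such genes can lie, and RefSeq (GRCm38.p6) promoter sequences matched 9 of the 10 genes; Egr1 was not matched. Within the 250 bases before a RefSeq start, each of the 3 Nr4a genes held 4 copies of the CRE core, TGACG on either strand. This is the core of the cAMP response element. The start used need not be the outermost one of a gene. The windows of Egr2 and Nr4a1, most of that of Nr4a3 and part of that of Fosb lie inside the listed span of the gene. Of 32851 promoter windows of the same length, 17.8% held at least 1 CRE core and 0.137% held 4 or more, the latter limit being set after the sequences had been seen. The windows of Nr4a1, Nr4a2 and Nr4a3 are shown because the 3 paralogs share this feature and did not move together, Nr4a2 rising where the other two fell in experiment 1, that of Egr2 because it holds a CArG box, the element bound by SRF, and those of Junb and Jun because both genes rose in every treated group; the window of Jun held none of the 3 elements marked. In the others, capitals mark every match to the CRE core, to the CArG box or to the EGR site GCGNGGGCG, on either strand.
Nr4a1 (chr15:101266596-101266845, + strand): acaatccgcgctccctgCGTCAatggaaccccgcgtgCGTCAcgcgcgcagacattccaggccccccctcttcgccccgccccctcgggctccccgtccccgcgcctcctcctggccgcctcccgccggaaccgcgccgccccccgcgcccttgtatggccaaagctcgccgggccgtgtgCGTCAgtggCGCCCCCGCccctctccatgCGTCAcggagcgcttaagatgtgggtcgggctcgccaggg
Nr4a2 (chr2:57124004-57124253, - strand): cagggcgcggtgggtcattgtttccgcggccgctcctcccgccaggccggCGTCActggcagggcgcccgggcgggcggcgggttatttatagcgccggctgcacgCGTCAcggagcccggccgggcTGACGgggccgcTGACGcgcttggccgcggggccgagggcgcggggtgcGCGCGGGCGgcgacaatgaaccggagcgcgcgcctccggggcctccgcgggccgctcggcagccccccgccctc
Nr4a3 (chr4:48045055-48045304, + strand): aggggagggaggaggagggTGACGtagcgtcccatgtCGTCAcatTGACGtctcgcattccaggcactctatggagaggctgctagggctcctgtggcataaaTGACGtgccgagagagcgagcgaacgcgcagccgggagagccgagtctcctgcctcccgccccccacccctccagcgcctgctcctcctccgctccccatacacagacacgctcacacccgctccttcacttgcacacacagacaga
Egr2 (chr10:67537619-67537868, + strand): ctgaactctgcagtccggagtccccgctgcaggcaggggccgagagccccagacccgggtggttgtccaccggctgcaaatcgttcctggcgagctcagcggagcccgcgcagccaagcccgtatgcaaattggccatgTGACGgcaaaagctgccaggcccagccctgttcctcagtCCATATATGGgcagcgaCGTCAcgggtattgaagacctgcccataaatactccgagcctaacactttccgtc
Junb (chr8:84978749-84978998, - strand): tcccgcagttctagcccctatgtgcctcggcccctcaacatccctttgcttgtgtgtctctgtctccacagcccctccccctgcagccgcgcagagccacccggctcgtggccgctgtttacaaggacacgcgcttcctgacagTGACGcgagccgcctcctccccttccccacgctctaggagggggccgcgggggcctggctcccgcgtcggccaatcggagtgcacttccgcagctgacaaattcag
Jun (chr4:95052223-95052472, - strand): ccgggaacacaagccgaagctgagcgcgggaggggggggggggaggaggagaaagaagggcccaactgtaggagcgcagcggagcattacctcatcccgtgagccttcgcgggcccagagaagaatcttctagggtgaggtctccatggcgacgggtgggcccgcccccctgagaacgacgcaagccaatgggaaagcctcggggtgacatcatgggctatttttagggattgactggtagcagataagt
The EGR site was found once each in Nr4a1, Nr4a2 and Fosb, against 4.7% of all windows. The CArG box was found in 4 of the 5 windows listed for Egr2, one of which is printed, and in 1.47% of all windows. Some of these Egr2 windows overlap and hold the same box, so that they are not separate sites. Fos held 2 CRE cores, and Fosb and Junb 1 each. The full CRE TGACGTCA, which contains the CRE core, the AP-1 site TGANTCA, the STAT site TTCNNNGAA and the NR4A site AAAGGTCA were not found in the windows of these 9 genes, and were found in 1.55%, 6.75%, 7.02% and 1.34% of all windows. These matches describe the letters of the windows only.

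The libraries of experiment 1 had 36824740 to 94070730 reads on genes, and those of experiment 2 had 27072917 to 43300094. The duplicates differed from each other by more than counting noise, but nothing in the labels says whether they came from separate mice or cultures. The paper describes its RNA-sequencing replicates as independent, from different tissue preparations or donors, without saying which holds for these duplicates. The p-values measure the spread between these libraries only. The defining markers of CD8+ T cells were abundant, with a summed level of Cd3d, Cd3e, Cd3g, Cd8a and Cd8b1 in RPKM (reads divided by transcript length and by mapped reads) of 880 to 906 in unstimulated and 947 to 1388 in treated cells of experiment 1, and of 1147 to 1267 and 1132 to 1349 in experiment 2. Of 23 markers of other cells, 17 were under 0.5 RPKM in every library. The 6 myeloid markers summed to between 0.184 and 0.268 RPKM in unstimulated and between 2.84 and 14.0 RPKM in treated cells of experiment 1, and to between 0.644 and 0.805 against between 6.31 and 16.6 RPKM in experiment 2. In treated cells Itgam made up nearly all of this sum. S100a8 and S100a9 were at 0 in all 20 libraries, and Lyz2, Csf1r and Cd14 reached at most 0.232, 0.0128 and 0.0726 RPKM in any library. The platelet markers Pf4 and Ppbp summed to 3.10 to 3.22 RPKM in unstimulated and 0.855 to 2.199 RPKM in treated cells of experiment 1, and to 2.05 to 2.41 against 0.158 to 0.830 RPKM in experiment 2. The B cell markers, nearly all Cd79b, overlapped between treated and unstimulated cells in experiment 1 and were lower in treated cells of experiment 2, at 3.09 to 4.34 against 6.25 to 8.30 RPKM. The NK cell markers Ncr1 and Klrb1c were low throughout but lower in treated cells, at 0.0651 to 0.1998 against 0.202 to 0.2398 RPKM in experiment 1 and at 0.00928 to 0.168 against 0.390 to 0.461 RPKM in experiment 2. Whether these shifts had a part in the results for the 10 genes was not tested. In bulk RNA, fewer cells of a type and less RNA per cell cannot be told apart. Jund shared 52.6% of its exonic bases with Gm11175, Junb 7.52% with Prdx2 and Jun 7.28% with Junos, all on the opposite strand, and whether the counting used strand is not given in the sources used here. The levels of Jund in particular could therefore hold reads of its neighbour.

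Junb and Jund had the highest levels per length of the 10 genes in unstimulated cells of both experiments, at 65.9 and 70.6 RPKM for Junb and 54.8 and 60.1 RPKM for Jund in experiment 1. In experiment 2 the unstimulated levels were 59.7 and 48.0 RPKM for Junb and 62.1 and 45.7 RPKM for Jund. Jun, Nr4a1 and Nr4a2 lay between 2.56 and 7.42 RPKM in all unstimulated libraries. Fos, Fosb and Egr1 differed most between the unstimulated cells of the 2 experiments. Fos stood at 0.155 and 0.245 RPKM in experiment 1 and at 2.95 and 2.59 RPKM in experiment 2. Fosb stood at 0.0788 and 0.144 RPKM against 1.10 and 1.17 RPKM, and Egr1 at 1.21 and 1.28 RPKM against 10.8 and 10.5 RPKM. This difference is between experiments prepared separately and was not tested.

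Which of these factors changed with cytokine was asked by comparing each treated group with the unstimulated cells of its experiment. Jun and Junb rose in all 8 treated groups and Nr4a3 fell in all 8, at a Benjamini-Hochberg adjusted p under 0.05 in edgeR's quasi-likelihood test over all genes, although the calls of Nr4a3 at 100 pM were not kept by DESeq2. In experiment 1, 8 of 10 genes passed for mIL-21 at 100 pM, 4 higher and 4 lower, where 77.7% of all genes tested passed (38.3% higher and 39.4% lower). For 21h10 at 100 pM, 7 passed, 4 higher and 3 lower, against 81.6% of all genes (40.2% and 41.3%). For mIL-21 at 1 nM, 7 passed, 4 higher and 3 lower, against 80.1% (39.9% and 40.3%). For 21h10 at 1 nM, 9 passed, 5 higher and 4 lower, against 80.3% (38.3% and 42.1%). The share of the 10 genes called in experiment 1 was thus near that of all genes. In experiment 2, 7 genes passed for mIL-21 at 10 nM, 5 higher and 2 lower, against 46.2% of all genes (22.5% and 23.7%). For 21h10 at 10 nM, 8 passed, 5 higher and 3 lower, against 50.1% (25.2% and 24.9%). For mIL-21 at 100 nM, 8 passed, 5 higher and 3 lower, against 46.2% (22.5% and 23.7%). For 21h10 at 100 nM, 8 passed, 5 higher and 3 lower, against 50.8% (25% and 25.8%).

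**Figure D1:**
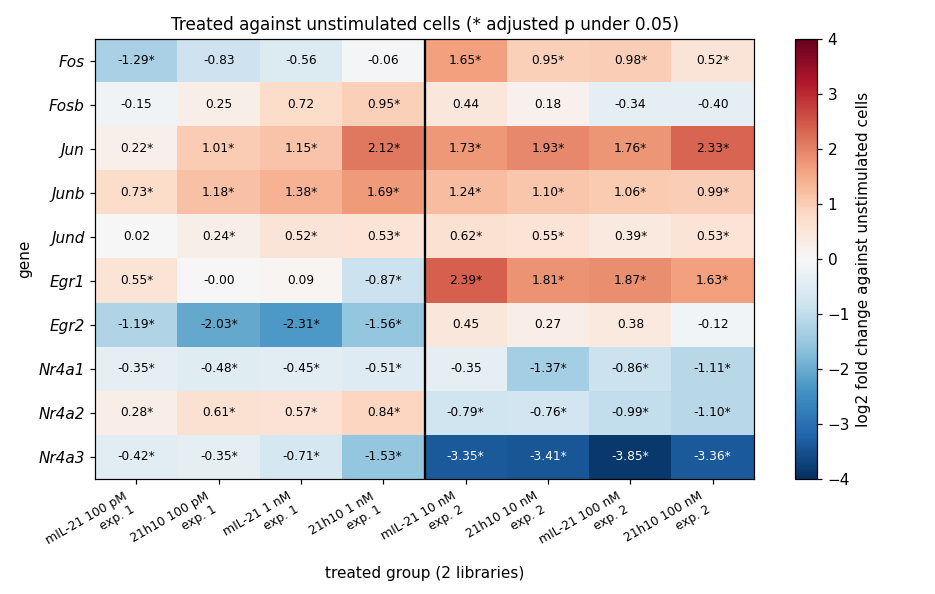
Log2 fold change of each gene (rows) in each treated group (columns, n = 2 libraries a group), relative to unstimulated cells of that experiment; asterisks mark an edgeR adjusted p under 0.05 over all genes. Jun and Junb are above 0 and Nr4a3 below 0 in all 8 columns, while Nr4a2 is above 0 in experiment 1 and below 0 in experiment 2.

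The heat shock genes, which respond to protein stress, moved with the same groups in experiment 1, where 77.7% to 81.6% of all genes passed (39.4% to 42.1% lower). All 6 fell with mIL-21 at 100 pM, with log2 fold changes of -3.35 for Hspa1b, -2.90 for Hspa1a and -2.60 for Hsp90aa1. In the other groups of experiment 1, 4 or 5 of the 6 fell, and Dnajb1 rose with 21h10 at 1 nM (0.68). Of the 5 tested in experiment 2, where 46.2% to 50.8% of all genes passed (23.7% to 25.8% lower), 2 or 3 fell in each treated group. Dnajb1 rose in all 4 (0.49 to 0.77), and Hsp90aa1 was at -0.58 at its lowest. Their part in the results for the 10 genes was not tested.

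Jun, the main partner of Fos proteins in AP-1, rose in every treated group and differed between the cytokines. In CPM (reads scaled to library size after TMM), the duplicates of experiment 1 stood at 17.1 and 16.7 (unstimulated), 21.0 and 18.1 (mIL-21, 100 pM), 33.9 and 34.1 (21h10, 100 pM), 36.0 and 38.9 (mIL-21, 1 nM), and 74.4 and 72.7 (21h10, 1 nM). The 5 groups did not overlap, and 21h10 was higher than mIL-21 at both doses. In experiment 2 they stood at 27.8 and 24.96 (unstimulated), 85.3 and 89.7 (mIL-21, 10 nM), 97.3 and 104 (21h10, 10 nM), 84.4 and 94.0 (mIL-21, 100 nM), and 133.6 and 132.1 (21h10, 100 nM). Only the 2 groups given mIL-21 overlapped there. Against unstimulated cells, Jun rose from 1.16-fold with mIL-21 at 100 pM (log2 fold change 0.22 ± 0.07, SE, edgeR adjusted p = 0.0115) to 4.35-fold with 21h10 at 1 nM (2.12 ± 0.07, edgeR adjusted p = 5.99e-15). In experiment 2 it rose between 3.32-fold with mIL-21 at 10 nM and 5.03-fold with 21h10 at 100 nM (2.33 ± 0.09, edgeR adjusted p = 9.51e-12). The call at 100 pM of mIL-21 was lost without duplicate 2 of the unstimulated cells (0.20, edgeR adjusted p = 0.0642) and without duplicate 1 of that group (0.10, edgeR adjusted p = 0.312).

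Junb, which forms AP-1 dimers in effector T cells, rose in all treated groups. In experiment 1 the duplicates stood at 145 and 152 CPM (unstimulated), 251 and 243 (mIL-21, 100 pM), 342 and 333 (21h10, 100 pM), 354 and 420 (mIL-21, 1 nM), and 511 and 448 (21h10, 1 nM). None of these groups overlapped. In experiment 2 the levels were 129 and 109 CPM (unstimulated), 268 and 293 (mIL-21, 10 nM), 255 and 255 (21h10, 10 nM), 244 and 252 (mIL-21, 100 nM), and 257 and 216 (21h10, 100 nM). The treated groups lay close together and above the unstimulated cells. The rise went from 1.66-fold with mIL-21 at 100 pM (0.73 ± 0.07, edgeR adjusted p = 3.53e-08) to 3.23-fold with 21h10 at 1 nM (1.69 ± 0.07, edgeR adjusted p = 3.1e-13), and was 1.98-fold to 2.35-fold in experiment 2.

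Jund, known as the most constantly expressed of the Jun genes, rose by 1.54-fold at most. It stood at 189 and 201.97 CPM in the unstimulated cells of experiment 1 and at 240 and 223 (21h10, 100 pM), 248 and 311 (mIL-21, 1 nM), and 322 and 245 CPM (21h10, 1 nM) in the groups where it was called higher. With mIL-21 at 100 pM, at 197 and 199 CPM, it overlapped the unstimulated cells (0.02 ± 0.10). In experiment 2 it stood at 210 and 163 CPM in unstimulated cells and at 245 to 308 CPM in the 8 treated libraries, and all 4 groups were called higher. That rise of 1.54-fold was with mIL-21 at 10 nM (0.62 ± 0.11, edgeR adjusted p = 0.00018). The call with 21h10 at 100 pM (0.24) was lost without unstimulated duplicate 1 (0.20) or duplicate 1 of that group (0.19) and with DESeq2 (0.26) and limma (0.21), and that with mIL-21 at 100 nM (0.39) without unstimulated duplicate 2 (0.22). With library sizes from mapped reads and no TMM, which moved the median of all genes by -0.32 with 21h10 at 100 nM, Jund was no longer called with 21h10 at 10 nM (0.27) or with either cytokine at 100 nM (0.17 for mIL-21 and 0.23 for 21h10). The same 3 calls were lost with limma (0.29, 0.18 and 0.24).

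Fos, the founding partner of Jun in AP-1, was low in experiment 1, with 3 to 36 reads a library. The duplicates stood at 0.389 and 0.600 CPM (unstimulated), 0.289 and 0.0769 (mIL-21, 100 pM), 0.211 and 0.302 (21h10, 100 pM), 0.281 and 0.360 (mIL-21, 1 nM), and 0.559 and 0.376 (21h10, 1 nM). One of the 4 comparisons passed, with mIL-21 at 100 pM (-1.29 ± 0.47, edgeR adjusted p = 0.02), and that call was lost without unstimulated duplicate 2 (-1.01) or without duplicate 2 of that group (-0.72). With 21h10 at 100 pM (-0.83 ± 0.39, edgeR adjusted p = 0.0599) the difference passed without unstimulated duplicate 1 (-1.17), without either mIL-21 100 pM library (-0.84 and -0.83) and under 3 other settings. In experiment 2 the duplicates had 242 to 1063 reads and stood at 7.27 and 6.71 CPM (unstimulated), 19.3 and 24.6 (mIL-21, 10 nM), 15.4 and 11.7 (21h10, 10 nM), 14.3 and 13.2 (mIL-21, 100 nM), and 11.03 and 8.997 (21h10, 100 nM). Every treated library was above both unstimulated ones. The rise was 3.14-fold with mIL-21 at 10 nM (1.65 ± 0.17, edgeR adjusted p = 7.68e-07), 1.93-fold with 21h10 at 10 nM, 1.97-fold with mIL-21 at 100 nM and 1.43-fold with 21h10 at 100 nM (0.52 ± 0.17, edgeR adjusted p = 0.0198). The last was lost without unstimulated duplicate 2 (0.46), without duplicate 1 of that group (0.35), with limma (0.16) and with library sizes from mapped reads (0.22).

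Fosb, a close relative of Fos, passed in 1 of the 8 groups. In experiment 1 it stood at 0.357 and 0.636 CPM in unstimulated cells and 1.01 and 0.830 CPM with 21h10 at 1 nM, a 1.93-fold rise (0.95 ± 0.31, edgeR adjusted p = 0.011) from 33 and 35 to 36 and 42 reads. Without unstimulated duplicate 1 the difference was 0.51 and without duplicate 1 of the treated group 0.82, and neither was called. With mIL-21 at 1 nM, at 0.742 and 0.809 CPM, the difference of 0.72 ± 0.33 missed the threshold (edgeR adjusted p = 0.0509) and was called without unstimulated duplicate 2 (1.11) and with no filter (0.69). In experiment 2 it stood at 4.86 and 5.48 CPM in unstimulated and at 3.13 to 8.30 CPM in treated libraries, with differences between -0.40 and 0.44 that did not pass. With library sizes from mapped reads, that with 21h10 at 100 nM did (-0.70).

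**Figure D2:**
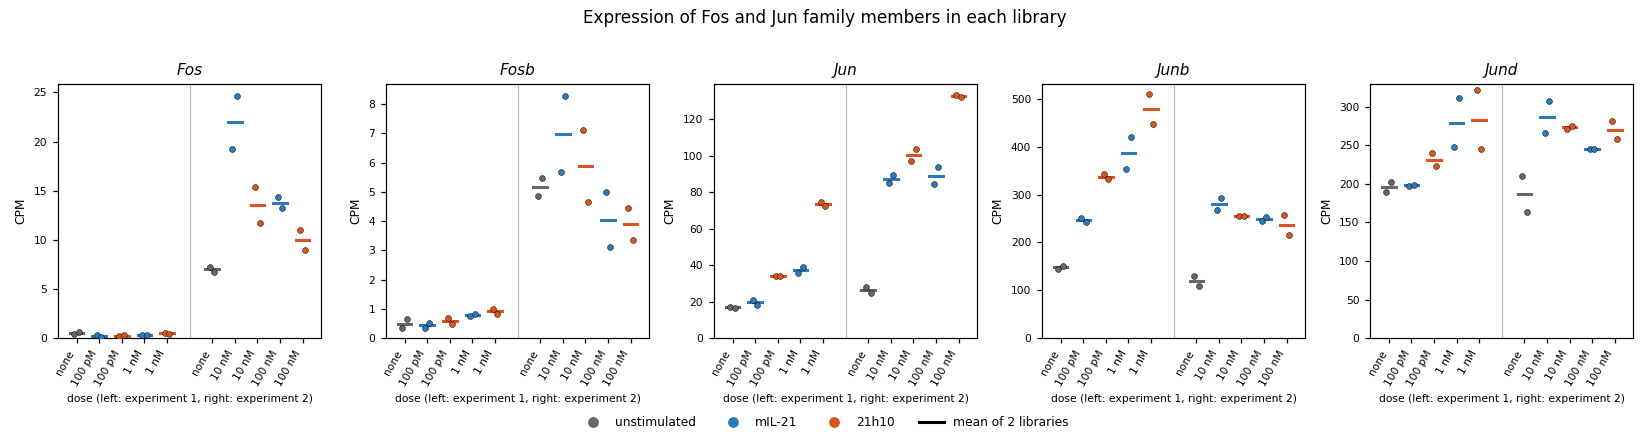
Level of the Fos and Jun family members in each library in CPM (vertical axis, linear from 0) by dose (horizontal axis; experiment 1 left and experiment 2 right of the line), with unstimulated cells in grey, mIL-21 in blue and 21h10 in orange; points are the 2 libraries and bars their mean. Jun reaches 133.6 and 132.1 CPM with 21h10 at 100 nM, and Fos stays under 1 CPM in all libraries of experiment 1.

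Egr1, an early target of MAP kinase and SRF, behaved differently in the 2 experiments. In experiment 1 it stood at 4.45 and 4.58 CPM (unstimulated), 6.68 and 6.54 (mIL-21, 100 pM), 4.51 and 4.49 (21h10, 100 pM), 5.01 and 4.59 (mIL-21, 1 nM), and 2.85 and 2.15 (21h10, 1 nM). It was highest with the lower dose of mIL-21 (1.47-fold, 0.55 ± 0.11, edgeR adjusted p = 0.000238) and lowest with the higher dose of 21h10 (1.83-fold lower, -0.87 ± 0.13, edgeR adjusted p = 9.48e-06), while the groups between differed by 0.09 at most from unstimulated cells. In experiment 2 it stood at 39.1 and 40.0 CPM (unstimulated), 173 and 242 (mIL-21, 10 nM), 137.4 and 140 (21h10, 10 nM), 133 and 155 (mIL-21, 100 nM), and 132 and 113 (21h10, 100 nM). All treated libraries were above both unstimulated ones. The rise was 5.24-fold with mIL-21 at 10 nM (2.39 ± 0.13, edgeR adjusted p = 6.31e-10) and 3.09-fold to 3.64-fold in the other 3 groups.

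Egr2, which restrains T cell activation and is needed for tolerance, fell in all 4 treated groups of experiment 1. It stood at 3.18 and 3.38 CPM (unstimulated), 1.44 and 1.41 (mIL-21, 100 pM), 0.748 and 0.830 (21h10, 100 pM), 0.614 and 0.697 (mIL-21, 1 nM), and 1.31 and 0.949 (21h10, 1 nM). All 5 groups were apart, and the lowest was mIL-21 at 1 nM (4.96-fold lower, -2.31 ± 0.20, edgeR adjusted p = 7.61e-09), with 24 and 31 reads. In experiment 2 Egr2 stood at 3.08 and 3.55 CPM in unstimulated and at 2.85 to 5.49 CPM in treated libraries, and none of the differences, from -0.12 to 0.45, passed. Without duplicate 1 of the cells given mIL-21 at 10 nM, that comparison was called (0.73).

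Nr4a1, the most used reporter gene of T cell receptor signals, fell in 7 of 8 groups. In experiment 1 it stood at 10.7 and 11.4 CPM in unstimulated cells and at 7.66 to 8.84 CPM in the 8 treated libraries, falls of 1.27-fold to 1.43-fold. In experiment 2 it stood at 10.7 and 9.11 CPM (unstimulated), 6.53 and 8.99 (mIL-21, 10 nM), 3.71 and 3.93 (21h10, 10 nM), 5.53 and 5.32 (mIL-21, 100 nM), and 4.51 and 4.68 (21h10, 100 nM). It was lowest with 21h10 at 10 nM (2.59-fold lower, -1.37 ± 0.19, edgeR adjusted p = 2.16e-05). With mIL-21 at 10 nM the difference of -0.35 ± 0.18 did not pass (edgeR adjusted p = 0.12), but did without duplicate 2 of that group (-0.60), with limma (-0.39) and with library sizes from mapped reads (-0.52).

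Nr4a2, its paralog, rose in all 4 groups of experiment 1 and fell in all 4 of experiment 2. In experiment 1 it stood at 13.4 and 12.6 CPM (unstimulated), 15.98 and 15.6 (mIL-21, 100 pM), 18.7 and 20.9 (21h10, 100 pM), 20.4 and 18.4 (mIL-21, 1 nM), and 22.6 and 24.2 (21h10, 1 nM). In experiment 2 it stood at 10.5 and 10.07 CPM in unstimulated cells and at 4.74 to 6.35 CPM in the 8 treated libraries. In neither experiment did a treated library overlap the unstimulated cells. The rise reached 1.80-fold with 21h10 at 1 nM (0.84 ± 0.08, edgeR adjusted p = 1.64e-08), and the fall 2.14-fold with 21h10 at 100 nM (-1.10 ± 0.16, edgeR adjusted p = 5.12e-05).

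Nr4a3, the third family member, had the largest fall of the 10 genes in each group of experiment 2. In experiment 1 it stood at 3.66 and 4.16 CPM (unstimulated), 3.05 and 2.74 (mIL-21, 100 pM), 2.44 and 3.49 (21h10, 100 pM), 2.38 and 2.38 (mIL-21, 1 nM), and 1.62 and 1.13 (21h10, 1 nM). In experiment 2 the unstimulated libraries had 185 and 197 reads (4.45 and 5.37 CPM) and the treated libraries 9 to 24 reads (0.262 to 0.595 CPM), so that every treated group was at a similar, low level. The fall in experiment 2 was 10.2-fold to 14.4-fold, the latter with mIL-21 at 100 nM (-3.85 ± 0.39, edgeR adjusted p = 9.79e-07). In experiment 1 it reached 2.89-fold with 21h10 at 1 nM (-1.53 ± 0.20, edgeR adjusted p = 1.25e-06). The calls at 100 pM were weak. For mIL-21 (-0.42, edgeR adjusted p = 0.0326) the call was lost without unstimulated duplicate 2 (-0.34) and without duplicate 1 (-0.50) or 2 (-0.35) of that group, and also with DESeq2 (-0.41), limma (-0.22) and library sizes from mapped reads (-0.34). For 21h10 (-0.35, edgeR adjusted p = 0.0456) it was lost without unstimulated duplicate 2 (-0.27), without duplicate 1 of that group (-0.15), without duplicate 1 of the cells given mIL-21 at 1 nM (-0.34) without either library of those given mIL-21 at 100 pM (-0.36 each) and with DESeq2 (-0.36).

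**Figure D3:**
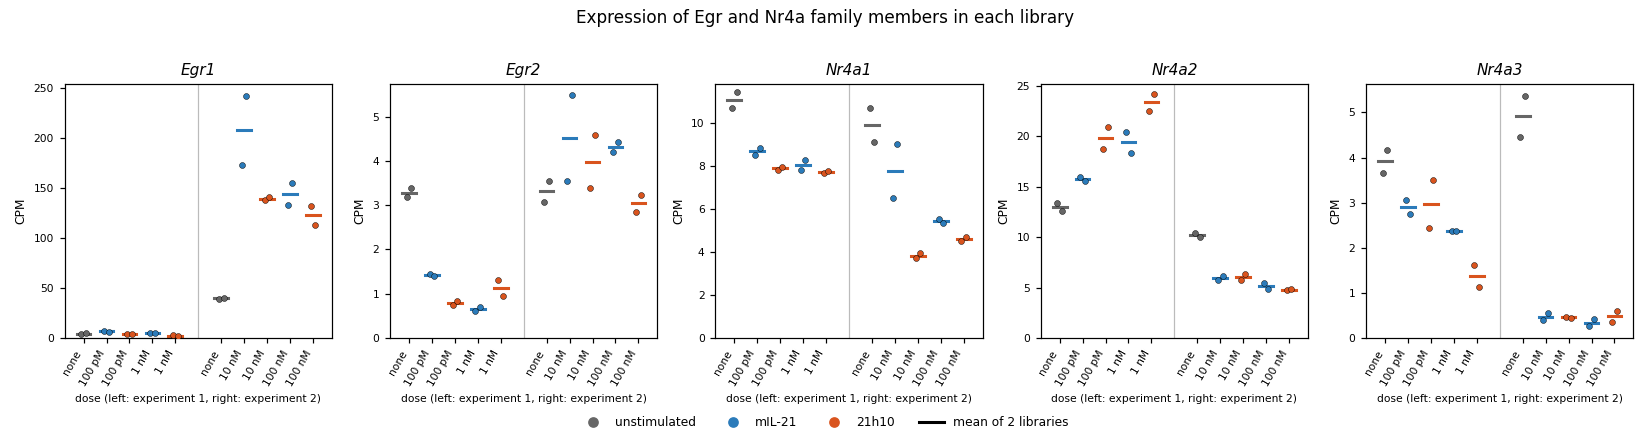
Level of the Egr and Nr4a family members in each library in CPM (vertical axis, linear from 0) by dose (horizontal axis; experiment 1 left and experiment 2 right of the line), coloured by cytokine as grey (none), blue (mIL-21) and orange (21h10); points are the 2 libraries and bars their mean. Nr4a3 falls to 0.262 to 0.595 CPM in the treated libraries of experiment 2, and Nr4a2 lies above the unstimulated cells in experiment 1 and below them in experiment 2.

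Whether 21h10 acts like the native cytokine at equal dose was asked by comparing them directly. At 100 pM, 5 of the 10 genes differed (3 higher and 2 lower with 21h10), where 38.6% of all genes tested did (19.6% higher and 19% lower). Jun was 1.73-fold higher with 21h10 (0.79 ± 0.07, edgeR adjusted p = 1.11e-07), Junb 1.37-fold (0.45 ± 0.07, edgeR adjusted p = 7.59e-05) and Nr4a2 1.26-fold (0.33 ± 0.08, edgeR adjusted p = 0.00288). Egr2 was 1.79-fold lower (-0.84 ± 0.21, edgeR adjusted p = 0.00403) and Egr1 1.47-fold lower (-0.56 ± 0.11, edgeR adjusted p = 0.000872). Of the other 5 genes, Nr4a1 differed by -0.14 (95% interval -0.31 to 0.04) and Nr4a3 by 0.06 (-0.30 to 0.43), and the intervals of Fos (-0.65 to 1.57) and Fosb (-0.36 to 1.15) were wide. The call of Nr4a2 was lost without duplicate 2 of the cells given 21h10 (0.24) and with limma (0.18). Jund (0.22, edgeR adjusted p = 0.0902) was called without either library of mIL-21 at 1 nM or of 21h10 at 1 nM (0.22 each), with no filter and with the compared groups alone, and Nr4a1 with limma (-0.18).

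At 1 nM, 6 genes differed (4 higher and 2 lower with 21h10) against 37.7% of all genes (19.6% and 18.1%). Jun was 1.96-fold higher with 21h10 (0.97 ± 0.07, edgeR adjusted p = 3.08e-09), Egr2 1.68-fold (0.75 ± 0.25, edgeR adjusted p = 0.0261), Junb 1.24-fold and Nr4a2 1.21-fold. Egr1 was 1.95-fold lower (-0.96 ± 0.14, edgeR adjusted p = 3.1e-05) and Nr4a3 1.77-fold lower (-0.83 ± 0.22, edgeR adjusted p = 0.00762). Jund differed by 0.02 (95% interval -0.19 to 0.23) and Nr4a1 by -0.06 (-0.25 to 0.13). Among these, Egr2 was lost without duplicate 1 (0.67) or 2 (0.85) of mIL-21 or without duplicate 1 of 21h10 (0.53) and with the compared groups alone (0.75, edgeR adjusted p = 0.0503), Nr4a2 without duplicate 2 of mIL-21 (0.20) or of 21h10 (0.22) and with limma (0.19), and Nr4a3 without duplicate 2 of 21h10 (-0.55). Egr2 was lower with 21h10 than with mIL-21 at 100 pM and higher at 1 nM, and this change of the difference with dose passed the test (1.59 ± 0.33, edgeR adjusted p = 0.00231), as did that of Nr4a3 (-0.89 ± 0.28, edgeR adjusted p = 0.0364), against 18.4% of all genes (8.34% higher and 10% lower). The other 8 genes did not pass in that test. That of Nr4a3 was lost without either library of mIL-21 at 1 nM (-0.89 each), without duplicate 1 (-0.97) or 2 (-0.82) of mIL-21 at 100 pM and without duplicate 2 of 21h10 at 1 nM (-0.62) or at 100 pM (-0.57), and with DESeq2 (-0.83), limma (-0.32) and the compared groups alone (-0.89). Without duplicate 1 of 21h10 at 1 nM, Egr1 (-0.59) and Jund (-0.41) passed too, and Junb passed without duplicate 1 of mIL-21 at 1 nM (-0.25).

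In experiment 2 fewer genes passed. Genes varied more between duplicates there (8.8% against 4.32% in experiment 1, the biological coefficient of variation in edgeR), and dose range and depth also differed. Why fewer passed was not tested. At 10 nM none of the 10 genes passed with edgeR, where 1 gene in all did (0.00726%). At an unadjusted p under 0.05, Nr4a1 (-1.02, 95% interval -1.43 to -0.62), Fos (-0.70, -1.04 to -0.36), Egr1 (-0.58, -0.85 to -0.31) and Jun (0.20, 0.02 to 0.38) did, 4 in all. Of the 13772 genes tested, 1207 did so at that unadjusted limit. DESeq2 called Nr4a1 and Egr1 here, limma called none, edgeR without a filter or on the 2 groups alone called Fos as well, and Egr1 was called without duplicate 1 of mIL-21 (-0.80). At 100 nM, Jun alone passed, 1.49-fold higher with 21h10 (0.58 ± 0.09, edgeR adjusted p = 0.00056), against 8.53% of all genes, and edgeR with no filter also called Fos (-0.48). Junb differed by -0.07 (-0.28 to 0.14), Egr1 by -0.24 (-0.51 to 0.03), Nr4a1 by -0.24 (-0.65 to 0.17), Nr4a2 by -0.10 (-0.47 to 0.26) and Nr4a3 by 0.49 (-0.54 to 1.51). None of the 10 genes passed in the test of whether the difference changed with dose in experiment 2, where 0.922% of all genes did. Jun (0.38) and Nr4a1 (0.78) had an unadjusted p under 0.05 there, where 1096 of the 13772 genes tested had one. DESeq2 and limma called none of the 10 in that test either.

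**Figure D4:**
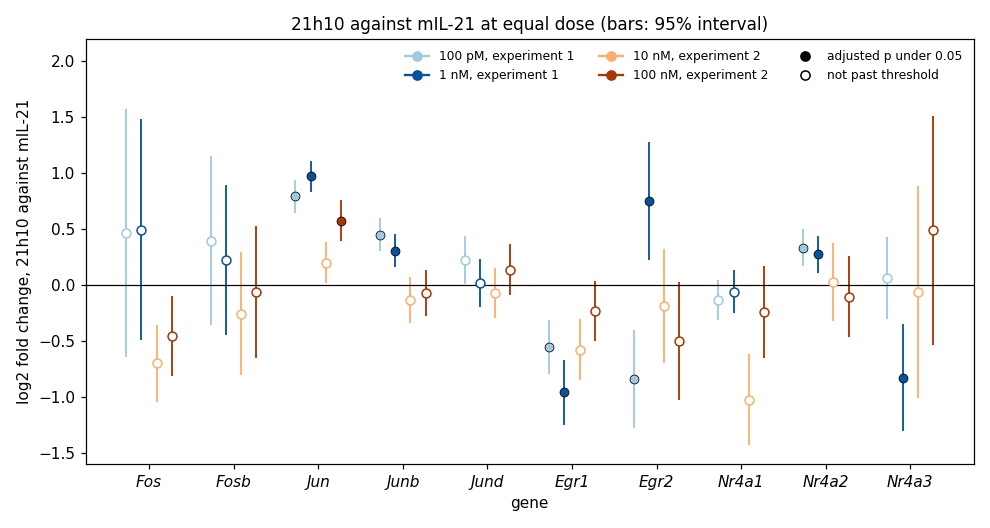
Log2 ratio of 21h10 to mIL-21 (vertical axis) for each gene at 4 doses (colours; n = 2 libraries a group), with 95% intervals from the edgeR fit; filled points passed an adjusted p of 0.05. Jun lies above 0 at all 4 doses and passes at 3, and Egr2 lies below 0 at 100 pM and above 0 at 1 nM.

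In experiment 1, Jun rose with dose under both cytokines, by more than Junb and Jund. From 100 pM to 1 nM of mIL-21, 6 of the 10 genes passed (4 higher, 2 lower) against 34.5% of all genes (17.9% and 16.6%). For 21h10 also 6 passed, 4 higher and 2 lower, against 39.2% (20.1% and 19.1%). Jun rose 1.91-fold with mIL-21 (0.93 ± 0.07) and 2.16-fold with 21h10 (1.11 ± 0.06), and Junb, Jund and Nr4a2 rose by less with both. Egr1 fell with both cytokines, 1.38-fold and 1.83-fold. Egr2 fell 2.17-fold with mIL-21 (-1.12 ± 0.24, edgeR adjusted p = 0.00152), while its difference with 21h10 was 0.47 ± 0.22 (edgeR adjusted p = 0.0997). Nr4a3 fell 2.27-fold with 21h10 (-1.18 ± 0.20, edgeR adjusted p = 0.000153), while its difference with mIL-21 was -0.29 ± 0.19 (edgeR adjusted p = 0.275). From 10 to 100 nM, none of the 10 genes and none of all 13772 genes (0%) passed with mIL-21. At an unadjusted p under 0.05, 5 of the 10 (Fos, Fosb, Jund, Egr1 and Nr4a1) were lower at 100 nM. Of all 13772 genes, 361 differed at that unadjusted limit. DESeq2 and limma called none of the 10 either, and edgeR with no filter called Fos and Egr1. With 21h10, Jun passed (1.32-fold higher, 0.40 ± 0.09, edgeR adjusted p = 0.0115) against 5.33% of all genes. That call was lost without any 1 of the 4 libraries compared (0.35 to 0.44). In experiment 1, Nr4a2 was lost for mIL-21 without duplicate 1 of 1 nM (0.22) or 2 of 100 pM (0.28), and for 21h10 without duplicate 2 of 1 nM (0.18) or 1 of 100 pM (0.17). Both calls were also lost with limma (0.15 and 0.16) and with library sizes from mapped reads (0.18 each). Jund was lost for 21h10 without duplicate 1 of 1 nM (0.09) and without either library of 100 pM (0.34 and 0.24), with DESeq2 (0.32) and with limma (0.22), and Egr1 for mIL-21 without duplicate 2 of 1 nM (-0.40).

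Set across doses, 21h10 at 100 pM lay close to mIL-21 at 1 nM. None of the 10 genes passed in that comparison with edgeR, where 103 genes (0.737% of those tested) did. The differences of the 10 genes ran from -0.47 for Fosb to 0.35 for Nr4a3. Of them, 2 genes, Junb (-0.20, 95% interval -0.35 to -0.05) and Jund (-0.27, -0.48 to -0.06), had an unadjusted p under 0.05. Over all 13974 genes tested, 1400 had one. DESeq2 and limma called none of the 10. Jun differed by -0.14 (-0.28 to 0.00), Egr1 by -0.09 (-0.34 to 0.16) and Nr4a2 by 0.04 (-0.13 to 0.20). Junb passed without duplicate 1 of mIL-21 at 1 nM (-0.32), and Jund with no filter (-0.27).

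The average response over the 4 treated groups, relative to unstimulated cells, was then compared between the experiments in a fit of all 20 libraries. It differed for 7 of the 10 genes (4 higher and 3 lower in experiment 2), where 64.7% of all genes differed (31.2% and 33.5%). Nr4a2 changed direction, with a mean response of 0.58 (95% interval 0.42 to 0.75) in experiment 1 and -0.96 (-1.14 to -0.78) in experiment 2. Egr1 had a mean response of -0.05 (-0.31 to 0.20) and 1.87 (1.66 to 2.09), Egr2 of -1.77 (-2.10 to -1.43) and 0.19 (-0.16 to 0.54), and Fos of -0.67 (-1.29 to -0.05) and 0.97 (0.66 to 1.29). Nr4a3 fell more in experiment 2, by 3.55 against 0.75, and Nr4a1 by 0.97 against 0.44, while Jun rose more, by 1.88 against 1.13. Junb had responses of 1.26 and 1.04, a difference that did not pass here (-0.21, edgeR adjusted p = 0.0814) but did with limma (-0.37), with no filter (-0.21), with library sizes from mapped reads (-0.38) and without each of 4 libraries in turn (duplicate 1 of mIL-21 at 1 nM, -0.27, duplicate 2 of 21h10 at 1 nM, -0.26, unstimulated duplicate 2 of experiment 2, -0.34, and duplicate 1 of 21h10 at 100 nM, -0.27). Jund passed without unstimulated duplicate 1 of experiment 2 (0.33). The dose range and the experiment changed together, and the unstimulated levels of Fos, Fosb and Egr1 differed between the experiments, so that dose and experiment cannot be told apart.

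**Figure D5:**
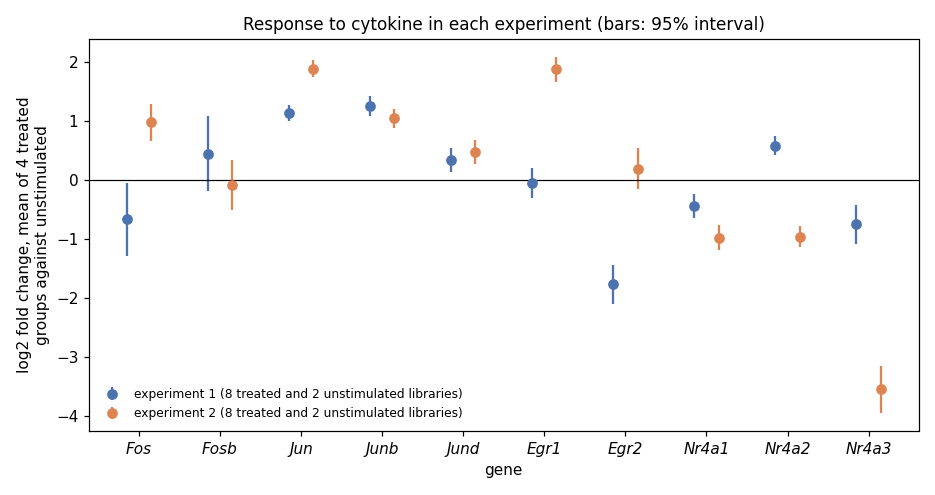
Log2 fold change averaged over the 4 treated groups, relative to unstimulated cells (vertical axis) for each gene, in experiment 1 (blue; 100 pM and 1 nM) and experiment 2 (orange; 10 and 100 nM), with 95% intervals from an edgeR fit of all 20 libraries. Nr4a2 lies at 0.58 in experiment 1 and at -0.96 in experiment 2, and Nr4a3 at -0.75 and -3.55.

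Other members of the same pathways were taken from fixed lists and are given by their counts and medians. Of 9 other AP-1 and related bZIP factors tested, 5 rose and 4 fell with mIL-21 at 100 pM, 5 and 4 (21h10, 100 pM), 6 and 3 (mIL-21, 1 nM), and 7 and 2 (21h10, 1 nM), against 77.7% to 81.6% of all genes called in either direction. The list's median log2 fold change was 0.20, 0.51, 0.39 and 0.52 in these groups, in the same order, and between -0.04 and 0.00 over all genes. Maff, a small Maf protein that lacks an activation domain, rose by 5.29, and Fosl2, a Fos paralog, by 3.35 on the log2 scale with 21h10 at 1 nM. In experiment 2, between 3 and 5 of the 9 rose and between 1 and 3 fell, where 46.2% to 50.8% of all genes were called, and the list's median ran from -0.04 with mIL-21 at 100 nM to 0.50 with 21h10 at 10 nM. Jdp2, a repressor of AP-1, fell there in every group, by 2.02 to 3.24, and Fosl1, another Fos paralog, rose by 2.10 with 21h10 at 100 nM. Of the EGR partners, the co-repressor Nab1 rose in all 4 groups of experiment 2 (1.37 to 1.63) and Nab2 fell in all 4 (-0.58 to -0.83). In experiment 1 both rose with 21h10 at 100 pM (0.48 for Nab1 and 0.24 for Nab2) and with mIL-21 at 1 nM (0.52 and 0.17), Nab1 alone rose with 21h10 at 1 nM (0.67, against -0.12 for Nab2), and neither passed with mIL-21 at 100 pM. Egr3, the third gene tested, did not pass in any group.

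Of 13 genes for SRF, its partners and the feedback on MAP kinase, between 6 and 9 rose and between 3 and 5 fell in the groups of experiment 1, and 3 or 4 rose and between 2 and 4 fell in experiment 2, beside the 77.7% to 81.6% and 46.2% to 50.8% of all genes called in those experiments. Spry1, an inhibitor of receptor signals to MAP kinase, rose in all 8 groups, by 1.78 with 21h10 at 1 nM and by 3.16 with mIL-21 at 10 nM. Dusp2, a nuclear phosphatase of MAP kinases, fell in all 8, by 1.71 with 21h10 at 1 nM and by 2.18 with 21h10 at 100 nM. With 21h10 at 100 nM against mIL-21 at that dose, Dusp10 was higher by 1.82 and Dusp4 by 1.15, and Dusp2 was lower by 1.19. Of the 6 calcium and NFAT partners, between 2 and 5 rose and 1 fell in each group of experiment 1, and 2 rose and 2 or 3 fell in each of experiment 2, a list median of 0.09 to 0.50 and of -0.43 to 0.20. The shares of all genes called were those just given. Tox, a factor of exhausted T cells, fell in all 4 groups of experiment 2 (1.57 to 2.18) and rose with mIL-21 at 100 pM (0.82). Of 11 other immediate-early and mRNA decay genes, 7 or 8 rose and 2 fell in the groups of experiment 1, and between 5 and 7 rose and between 1 and 3 fell in those of experiment 2, beside the same shares of all genes, with list medians (log2 fold change) of 0.35 to 0.59 and of 0.05 to 0.59. Ier3 rose in all 8 groups (2.17 to 4.40), as did Zfp36, which encodes an mRNA decay factor (1.34 to 3.31), and Zfp36l1 (0.82 to 1.59).

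Among themselves, some of the 10 genes kept the sign of their correlation in both experiments and others did not. Over the 10 libraries of each experiment, which share 5 groups, the log2 CPM of Jun correlated with that of Junb at r = 0.92 and 0.90 and with that of Nr4a3 at -0.88 and -0.92. Jun and Nr4a2 correlated at 0.93 in experiment 1 and at -0.95 in experiment 2, and Egr1 and Nr4a3 at 0.74 and -0.91. Some of the 10 were among the 10048 genes compared but were not ranked. Outside the 10, the pattern most like that of Jun in both experiments was that of Hsd17b10 (r of at least 0.98), a mitochondrial dehydrogenase gene, followed by Frmd4b. By the lower r of the 2 experiments, rounded, the nearest to Junb were Slc41a1 and Dgat1 (0.99 each). Those to Nr4a3 were Slain1 and Mast2 (0.96 and 0.93), and those to Nr4a1 Crkl and Sfxn1 (0.95 and 0.94). For Nr4a2 they were Slc25a37 and Gzf1 (0.94 and 0.92), and for Egr1 Csk and Arrb2 (0.92 each). The nearest patterns to Egr2 (Ppp6r3, 0.85), Fos (Cabin1, 0.84) and Fosb (Elk1, 0.69) were less alike, and Jund lay between (Slc39a1, 0.92). These values describe likeness of pattern over libraries that differ in the same treatments.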

How the data were processed

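Each table listed 31682 RefSeq transcripts of 1 library, with raw read counts and RPKM values deposited by the authors. Per the paper, the authors mapped reads to mm10 (GRCm38) with TopHat 2.0.11, counted reads on exons and normalized the counts to RPKM. Libraries were grouped by the sample labels, where WT was read as native mIL-21 and h10 as 21h10. The 10 genes, the lists and the tests were chosen with earlier results of these data known. The named genes were the 10, up to 3 called members with the largest change per list and comparison, and the 2 most similar patterns per gene, while genes described over all groups were chosen after their values were seen. Counts were filtered (filterByExpr, least count 10, least total 15), leaving 13974 (experiment 1) and 13772 genes (experiment 2), scaled by TMM and tested with edgeR 4.0.16 (glmQLFit, glmQLFTest) in R 4.3.3 on all 10 libraries of an experiment, with Benjamini-Hochberg adjustment and a threshold of 0.05. SE is the log2 fold change divided by the root of F. Log2 CPM used a prior count of 2. Scripts were tested on simulated data. Alternatives were DESeq2 1.42.0, no filter, limma 3.58.1 on log2(RPKM + 1), mapped-read library sizes without TMM, the most-read transcript, compared groups alone, a replicate block and each library left out. Overlaps came from GENCODE M21.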

Additional observations from a re-analysis of the deposited data

Results flagged for a closer look

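The difference between 21h10 and mIL-21 changed with dose in experiment 1 for 2 of the 10 genes, by a test of that change itself in edgeR. In that test 18.4% of all genes passed, near the share among the 10. That of Egr2 moved by 1.59 and that of Nr4a3 by -0.89 (the log2 ratio of 21h10 to mIL-21 at 1 nM minus that at 100 pM). The Nr4a3 call was lost with DESeq2 (-0.83), limma (-0.32) and the compared groups alone (-0.89), and without some single libraries. What caused these changes with dose was not tested.

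The mean response to cytokine differed between the experiments for 7 genes, by a test of the difference of the responses in edgeR. Over all genes tested, 64.7% passed in the same test, near the share among the genes described here. As log2 fold changes, experiment 2 minus experiment 1, the differences were 1.64 for Fos, 0.75 for Jun, 1.92 for Egr1, 1.96 for Egr2, -0.53 for Nr4a1, -1.54 for Nr4a2 and -2.79 for Nr4a3. Dose range and experiment cannot be told apart here.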

How the results depend on the processing

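Of the 200 values of the 10 genes over 20 comparisons, 96 were called, and none of these changed sign in the 1685 values that the alternatives gave for them. The numbers of genes called stayed within 1.5 times of those reported except as follows. Apart from genes for which limma had no value, the cause was not tested. In experiment 1, limma had no value for Fos, Fosb and Egr2. With mIL-21 at 100 pM against unstimulated cells, limma called 5 in place of 8, with no value for Fos and Egr2 and with Nr4a3 lost. For the change of the cytokine difference with dose in experiment 1, DESeq2 and the compared groups alone each called 1 in place of 2. There limma called 0, with no value for Egr2 and with Nr4a3 lost. For 21h10 at 100 pM against mIL-21 at 1 nM, no filter called 1 in place of 0. For 21h10 against mIL-21 at 10 nM, DESeq2 called 2 and no filter and the compared groups alone 3 each in place of 0, and at 100 nM no filter called 2 in place of 1. For mIL-21 at 100 against 10 nM, no filter called 2 in place of 0, and for 21h10 limma called 0 in place of 1. Leaving out 1 library at a time gave 5 to 8 calls for mIL-21 at 100 pM (5 without unstimulated duplicate 2), 1 to 4 for the change with dose in experiment 1, 0 to 1 for 21h10 at 100 pM against mIL-21 at 1 nM, 0 to 1 for 21h10 against mIL-21 at 10 nM and 0 to 1 for 21h10 at 100 against 10 nM.

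The labels give duplicate numbers in every group. Deviations of same-numbered libraries from their group means correlated at -0.06 to 0.03 in experiment 1 and -0.17 to 0.23 in experiment 2, so that the numbers were not taken as pairs. A fit with the replicate block gave the same number of calls among the 10 genes in all 20 comparisons and changed none of their calls. Over all genes it called 4 in place of 1 for 21h10 against mIL-21 at 10 nM. There, no filter called 179 genes, DESeq2 13 and limma 0, against 1. For 21h10 at 100 nM against mIL-21, leaving out 1 library gave 372 to 1928 genes against 1175, and for 21h10 at 100 against 10 nM 254 to 1288 against 734. Depth limits Fos and Fosb in experiment 1, Egr2 in treated cells of experiment 1 (24 to 77 reads) and Nr4a3 in treated cells of experiment 2.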
